A study of Drosophila melanogaster with 6 samples.

Results

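Integrins are the receptors through which animal cells hold on to the extracellular matrix. Each is a heterodimer of an alpha and a beta subunit, and inside the cell talin and kindlin bind the short tail of the beta subunit, switch the receptor to its active form and link it to actin. The 10 genes described here are the *Drosophila* integrin subunits together with talin and the kindlins, and they were taken by gene name, a rule that uses no measured value, from the 17494 genes listed for each sample. The beta subunits are mys (betaPS) and Itgbn (betanu). The alpha subunits are mew (alphaPS1), if (alphaPS2), scb (alphaPS3), ItgaPS4 and ItgaPS5. The cytoplasmic partners are rhea, which encodes talin, and the kindlins Fit1 and Fit2. In fly embryos, integrins are best known for attaching muscles and epithelia to the basement membrane. Embryonic macrophages, also called plasmatocytes or hemocytes, use them during migration, and scb with Itgbn has a described role in the uptake of dying cells.

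The comparison asks which mRNA levels differ when the transcription factor Dfos, the fly Fos protein encoded by kay, is blocked in macrophages. The 3 DfosDN samples came from embryos carrying srpHemo-Gal4, srpHemo-3xmCherry and UAS-DfosDN, which makes a dominant negative Dfos without its activation domain in macrophages, on top of the endogenous protein. The 3 WT samples, the controls, came from embryos with srpHemo-Gal4 and srpHemo-3xmCherry alone, so driver and marker were shared by all 6. Embryos labelled stage 11, which by the study's methods also included some at the start of the next stage, were raised at 29°C, pooled and dissociated, and mCherry-positive cells were sorted before RNA was sequenced from the 3′ end. The labels number the replicates but do not say what else separates them, so the p-values measure the spread between these samples.

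The values follow the TPM scale, a length-corrected measure of relative transcript abundance, but the decimal point is missing from all deposited numbers that reach 1. The point was restored from gene length and whole read numbers, which gave between 8454664 and 10069439 reads per library, and TPM values were then scaled between libraries. For all 10 genes the restored values stood at the smallest power of 10 that gives whole reads. Called genes are those with an adjusted p under 0.05 from limma on log2(TPM + 1) with Benjamini-Hochberg adjustment over all 7393 genes tested. For kay, the reads were 941, 945 and 866 in DfosDN and 368, 784 and 665 in WT libraries, without overlap (log2 fold change 0.68, adjusted p = 0.258, limma). According to the study, such reads can stem from the endogenous gene and from the transgene alike. The genes the study followed, the filamin cher and the tetraspanin TM4SF, had log2 fold changes of -1.52 (adjusted p = 0.0138, limma) and -2.85 (adjusted p = 0.00103, limma).

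The macrophage identity of the samples was checked with a list of textbook markers. The hemocyte GATA factor srp averaged 21.4 ± 0.998 TPM in DfosDN and 23.4 ± 6.40 TPM in WT (SD, n = 3 each). All 11 macrophage markers had reads in the series, but not in every library. Both eater (DfosDN replicate 2 and WT replicate 1) and He (DfosDN replicate 3) had libraries with 0 reads, and both failed the filter on low reads. One library stood apart. WT replicate 3 had 878 reads on Hml, 176 on He, 87 on NimC1 and 63 on eater, genes of later plasmatocytes, while no other library exceeded 52 on Hml, 15 on He, 23 on NimC1 or 4 on eater. Over all genes tested, 3.54% were called in either direction. Of the 3 crystal cell markers 1 was called, the prophenoloxidase gene PPO2, which was lower in DfosDN. The summed TPM of lz, PPO1 and PPO2 was between 1986 and 2621 in DfosDN and between 5110 and 14240 in WT, nearly all of it from PPO2 (adjusted p = 0.00825, limma), of whose 6 values 3 were placed above the smallest power of 10. PPO1 had a log2 fold change of -1.19 with overlapping groups (adjusted p = 0.0857, limma). The crystal cell fate factor lz had 0.06 (adjusted p = 0.954, limma). The macrophage list summed to between 1081 and 1286 TPM in DfosDN and between 1471 and 2301 TPM in WT. Of its 9 tested genes 1 was called, the fate factor gcm, which was higher in DfosDN (adjusted p = 0.0161, limma). It was the single tested marker of this list above 0. The other 8 had log2 fold changes below 0, among them SPARC (-1.10, adjusted p = 0.0616, limma), drpr (-0.90, adjusted p = 0.139) and Pxn (-0.49, adjusted p = 0.131), and the median of the list was -0.49. Muscle and mesoderm markers, from tissues rich in integrins, summed to between 43.2 and 73.3 TPM in DfosDN and between 54.1 and 73.1 TPM in WT, with 0 of 7 called (limma, with 1 of 7 at an unadjusted p under 0.05). Epithelium markers summed to between 16.5 and 36.7 TPM in DfosDN and between 20.7 and 30.9 TPM in WT, with 0 of 3 called (limma). Neuron and glia markers summed to between 18 and 25 TPM in DfosDN and between 12.3 and 20.2 TPM in WT, with 0 of 3 called. Single genes of these lists came near srp or above it. The muscle and mesoderm gene how averaged 29.2 TPM in DfosDN and 27.8 TPM in WT, above the srp mean in each group. Epithelial shg had 17.2 and neuronal elav 19.9 TPM in DfosDN (15.7 and 16.1 TPM in WT). The source of these reads was not tested.

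Of the 10 genes, 9 passed the filter on low reads and 1 of these, scb, was called. It was lower in DfosDN. Over all genes tested, 3.54% were called in either direction, 1.57% as higher and 1.97% as lower in DfosDN, so 1 gene in 9 is a small count to set beside the background. The other alpha subunits, the beta subunits, talin and the kindlins gave overlapping groups.

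The alphaPS3 gene scb (FBgn0003328, named FBgn0286785 in the BDGP6.54 annotation, chromosome 2R from 15248784 to 15258498) encodes an alpha subunit known from dorsal closure, tracheal development and, with betanu, engulfment. Its values were 13.6, 11.5 and 12.3 TPM in DfosDN macrophages, against 23.4, 21.5 and 27.4 TPM in WT macrophages. All 3 DfosDN libraries lay below all 3 WT libraries, with a clear gap and little spread within either group. The underlying reads were 522, 387 and 474 in DfosDN and 959, 858 and 965 in WT. The means were 12.5 ± 1.07 TPM in DfosDN and 24.1 ± 3.01 TPM in WT (SD, n = 3 each), so that the DfosDN mean was 0.518 of the WT mean. The log2 fold change was -0.89 with a 95% interval from -1.34 to -0.45 and a standard error of 0.20 (adjusted p = 0.041, limma). Of all genes tested, 3.99% had a log2 fold change at or below that of scb, and groups that do not overlap were found for 23.9% of them. The exact permutation test over the 6 samples gave p = 0.1 (two-sided), the smallest that 3 against 3 allows.

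The size of the scb difference was steadier than its call. Without WT replicate 3, the library with the plasmatocyte genes, the log2 fold change was -0.80 (adjusted p = 0.169, limma), and leaving out any one of the 6 libraries moved it only between -0.96 and -0.80, while the adjusted p then lay between 0.0724 and 0.169 and the call was lost each time, so that 0 of the 10 genes were called without WT replicate 3 (limma, with scb at an unadjusted p of 0.00838). With the replicate number as a block the adjusted p was 0.0682. In RNA from a bulk of sorted cells, fewer cells of a type and less RNA per cell cannot be told apart. Any link between the lower crystal cell gene PPO2 and the scb result was not tested.

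**Figure D1:**
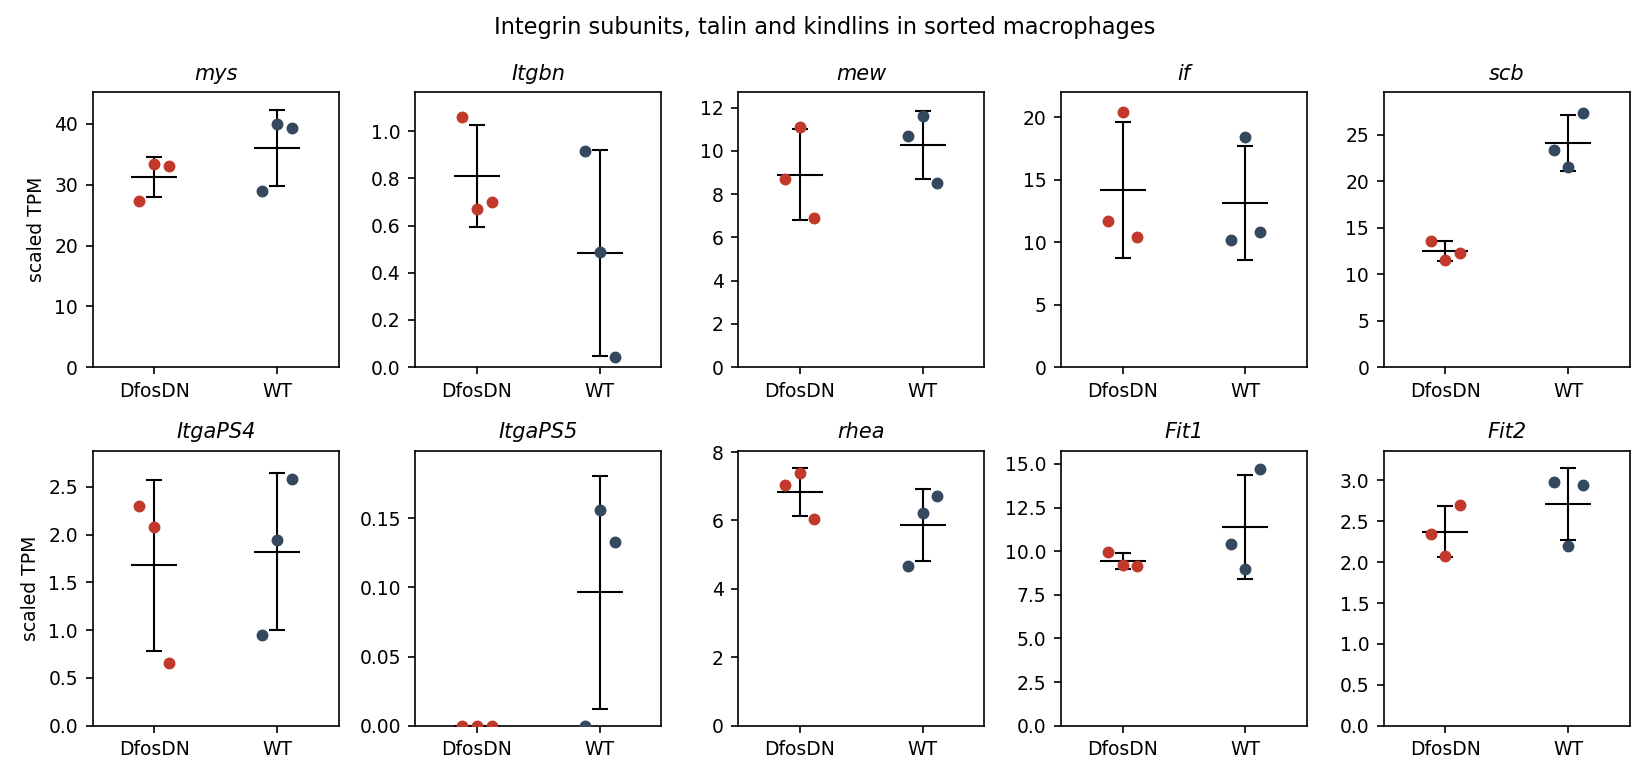
Scaled TPM of the 10 genes in each library, DfosDN left and WT right, with a separate axis from 0 for each gene. Points are libraries, the long dash is the mean and the bars are the SD (n = 3). The groups separate for scb (11.5 to 13.6 TPM in DfosDN, 21.5 to 27.4 TPM in WT) and overlap for the other genes.

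The gene next to scb behaved differently. ItgaPS4 (FBgn0034005) starts 262 bases after the end of scb on the same strand of chromosome 2R, from 15258761 to 15262873, and encodes an alpha subunit whose function is less well known. It had 2.30, 2.08 and 0.657 TPM in DfosDN, against 0.947, 1.94 and 2.58 TPM in WT. The lowest library of each group was near or under 1 TPM, and the groups overlapped throughout. Its log2 fold change was -0.09 (95% interval from -0.89 to 0.70, adjusted p = 0.923, limma). It turned positive without DfosDN replicate 3, to 0.23, and without WT replicate 3, to 0.10. The 3′ end of ItgaPS4 overlaps Trpm on the opposite strand, and whether counting used the strand is not given in the sources used here, so reads of the 2 genes may not be separable. The last alpha subunit, ItgaPS5 (FBgn0034880, chromosome 2R from 23556672 to 23560263), was close to the limit of detection. It had 0 reads in each DfosDN library, against 0, 4 and 3 reads in WT. It failed the filter and was not tested. At this depth 3 reads, the upper limit for a count of 0 in a library, correspond to between 0.117 and 0.135 TPM before scaling. A count of 0 therefore does not exclude presence below that level.

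The alpha subunits of the better known PS1 and PS2 integrins showed no difference past the test. The gene mew (FBgn0004456, chromosome X from 13214409 to 13258490) encodes alphaPS1, which pairs with betaPS as a laminin receptor. It had 8.72, 11.1 and 6.89 TPM in DfosDN, against 10.7, 11.6 and 8.51 TPM in WT, with overlapping groups. Its log2 fold change of -0.20 was smaller than its standard error of 0.26 (95% interval from -0.76 to 0.37, adjusted p = 0.743, limma), and it ran from -0.35 without DfosDN replicate 2 to -0.03 without DfosDN replicate 3. CG15742 and CG32639 overlap mew on the same strand, with the limit given for shared reads of scb. The gene if (FBgn0001250, chromosome X from 16752189 to 16783434) encodes alphaPS2, the subunit that binds matrix proteins such as Tiggrin. It had 11.7, 20.4 and 10.4 TPM in DfosDN, against 10.2, 18.4 and 10.8 TPM in WT. In each group replicate 2 was the high library and the other libraries lay close together, so the spread came from 1 library a group. The log2 fold change of if was 0.09 (95% interval from -0.61 to 0.78, adjusted p = 0.919, limma). It was -0.19 without DfosDN replicate 2, -0.05 without WT replicate 1 and -0.02 without WT replicate 3.

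The beta subunit mys (FBgn0004657, chromosome X from 8061645 to 8070237), the partner of the PS alpha chains, was the most abundant of the 10 genes. Its values were 27.4, 33.4 and 33.0 TPM in DfosDN, against 28.9, 40.0 and 39.4 TPM in WT. Replicate 1 was the lowest library in each group, and the WT value of 28.9 TPM fell inside the DfosDN range. For mys the log2 fold change was -0.19 (standard error 0.19, 95% interval from -0.62 to 0.24, adjusted p = 0.65, limma). The interval of mys does not reach the estimate for scb, but the difference between the genes was not tested in the model. Within libraries, the ratio of scb to mys TPM was 0.498, 0.346 and 0.373 in DfosDN, against 0.813, 0.537 and 0.694 in WT, without overlap (exact permutation test, two-sided, p = 0.1, the smallest possible, and 0.533 after Benjamini-Hochberg adjustment over 12 such quantities).

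The second beta subunit, Itgbn (FBgn0010395, chromosome 2L from 21053033 to 21058044), encodes betanu, which has been described with scb in phagocytosis. It was scarce, with 1.06, 0.670 and 0.700 TPM in DfosDN, against 0.916, 0.488 and 0.0425 TPM in WT. These values rest on 27, 15 and 18 reads in DfosDN and on 25, 13 and 1 reads in WT, and the single read of WT replicate 3 was the lowest. The log2 fold change was 0.32 (95% interval from -0.31 to 0.96, adjusted p = 0.604, limma), and it was 1.02 when 0.1 and not 1 was added to the TPM before taking logs, and 0.09 when 5 was added. Leaving out WT replicate 3, the library with the single read, gave 0.09, and leaving out WT replicate 1 gave 0.53. The 3′ end of Itgbn overlaps CG9265 on the opposite strand, with the same limit as for ItgaPS4. The transcript pool of beta subunits was therefore almost wholly mys, at 96.3%, 98% and 97.9% of summed beta TPM in DfosDN and 96.9%, 98.8% and 99.9% in WT.

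Among the alpha subunits, the composition shifted in mean but not beyond the spread. scb made up 37.6%, 25.6% and 40.7% of the summed alpha TPM in DfosDN, against 51.8%, 40.1% and 55.4% in WT. The highest DfosDN library was level with the lowest WT library (exact permutation test, two-sided, p = 0.2, and 0.533 adjusted over the 12 quantities). The share of if was 32.1%, 45.2% and 34.3% in DfosDN, against 22.6%, 34.4% and 21.9% in WT (p = 0.3 by the same exact test, adjusted 0.533). Replicate 2 had the largest if share and the smallest scb share of each group. The share of mew ranged from 22.8% to 24.6% in DfosDN and from 17.2% to 23.6% in WT. The summed alpha TPM was 36.3, 45.1 and 30.2 in DfosDN, against 45.3, 53.6 and 49.4 in WT. The highest DfosDN library was just under the lowest WT library (exact permutation p = 0.1, adjusted 0.533), and the groups overlapped in RPM, that is in reads scaled for library depth and not divided by gene length.

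**Figure D2:**
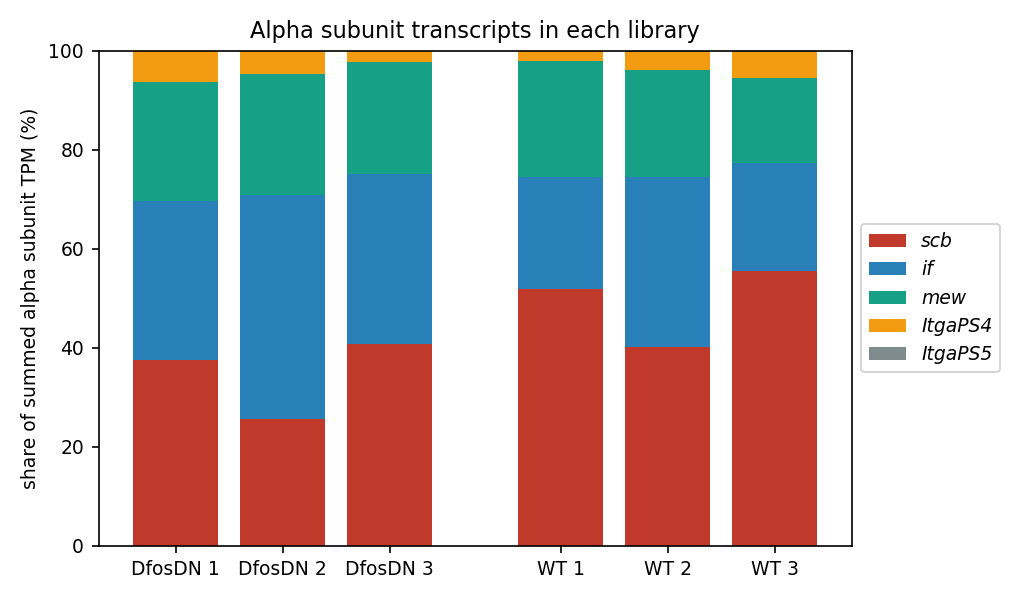
Share of each alpha subunit in the summed alpha subunit TPM (percent), 1 bar per library, DfosDN libraries left and WT libraries right. The scb share is 25.6% to 40.7% in DfosDN and 40.1% to 55.4% in WT, and replicate 2 of each group has the largest if share.

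Talin and the kindlins, which activate integrins from inside the cell, gave no called difference. Talin, encoded by rhea (FBgn0260442, chromosome 3L from 8545001 to 8574409), had 7.03, 7.39 and 6.04 TPM in DfosDN, against 4.68, 6.22 and 6.70 TPM in WT. WT replicate 1 was the low library, and the remaining values overlapped. Its log2 fold change was 0.20 (95% interval from -0.37 to 0.76, adjusted p = 0.741, limma). The rhea gene also holds mir-190 and lncRNA:CR43910 on the same strand, and how the authors assigned reads shared with these is not given in the sources used here. The kindlin Fit1 (FBgn0035498, chromosome 3L from 4103564 to 4107116) had 9.94, 9.19 and 9.14 TPM in DfosDN, against 10.4, 8.99 and 14.7 TPM in WT. The DfosDN libraries were within 1 TPM of each other, and WT replicate 3 set the spread of the WT group. Its log2 fold change was -0.22 (95% interval from -0.77 to 0.33, adjusted p = 0.691, limma), and -0.03 without WT replicate 3 or -0.35 without WT replicate 2. The other kindlin, Fit2 (FBgn0036688, chromosome 3L from 17024328 to 17027117), had 2.34, 2.08 and 2.70 TPM in DfosDN, against 2.98, 2.20 and 2.95 TPM in WT. All 6 values of Fit2 lay below every value of Fit1 on the TPM scale, and its log2 fold change was -0.13 (95% interval from -0.71 to 0.45, adjusted p = 0.837, limma).

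The order of mean levels on the TPM scale differed between the groups in the places of scb and if. In DfosDN macrophages mys led with a mean of 31.2 TPM, followed by if (14.1), scb (12.5), Fit1 (9.42), mew (8.91), rhea (6.82), Fit2 (2.38), ItgaPS4 (1.68), Itgbn (0.809) and ItgaPS5. In WT macrophages mys (36.1 TPM) was followed by scb (24.1), then if (13.2), Fit1 (11.4), mew (10.3), rhea (5.87), Fit2 (2.71), ItgaPS4 (1.82), Itgbn (0.482) and ItgaPS5 (0.0963). In DfosDN the library ranges of if and scb overlapped. There scb lay above if in replicates 1 and 3 and below it in replicate 2 (11.5 against 20.4 TPM). In WT scb lay above if and below mys in every library on the TPM scale. In RPM, if lay above scb in every DfosDN library and in WT replicate 2 (91.1 against 88.3). The ranges of if and Fit1, of Fit1 and mew, and of Fit2 and ItgaPS4 overlapped in WT. Among all genes tested, mys stood at percentile 74.8 of mean TPM in DfosDN and 76.6 in WT, scb at percentile 55.2 in DfosDN and 69.2 in WT, and Itgbn at percentile 7.33 in DfosDN and 3.77 in WT. Since reads of 3′ end libraries do not grow with gene length, division by length places the long talin gene low. In RPM the mean of rhea was 62.1 in DfosDN, rank 3 of the 10 genes, and 53.4 in WT, rank 4.

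Of the 9 tested genes, 6 had a log2 fold change below 0 and 3 above, with a median of -0.13. Over all genes tested 50.1% lay below 0 and the median was -0.00. The unadjusted p was under 0.05 for 1 of the 9, again scb.

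The proteins that work with integrins were examined as a further list of 25 genes: cytoplasmic adaptors and kinases, the Rap1 pathway that promotes integrin activation, and matrix ligands. Of these, 24 were tested and 2, stck and ics, were called, both lower in DfosDN. Over all genes tested, 1.97% were called lower. Without WT replicate 3 only 1 of the 2, ics, was called. Both genes belong to the same protein assembly. In it, integrin-linked kinase (Ilk), parvin and PINCH (stck) form a complex at the integrin tail, and Rsu1, encoded by ics, binds PINCH. Of the 24 genes, 21 had a log2 fold change below 0 and the median was -0.34, beside 50.1% below 0 and a median of -0.00 over all genes tested. The list was chosen with earlier results of these data known, so these shares are a description and not a test. The macrophage markers lay lower in DfosDN too, with 8 of 9 below 0 and a median of -0.49, and their part in the values of the adhesion list was not tested. Groups did not overlap for 9 of the 24, or for 23.9% of all genes tested.

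The Rsu1 gene ics (FBgn0028546, chromosome 2L from 13639447 to 13642602) had 35.5, 27.9 and 36.9 TPM in DfosDN, against 74.9, 87.8 and 79.3 TPM in WT. The gap between the groups was wider than the range within either. The log2 fold change was -1.25 with a 95% interval from -1.63 to -0.88 (adjusted p = 0.00385, limma), and the call held with each library left out in turn. The PINCH gene stck (FBgn0020249, chromosome 3R from 8356978 to 8359964) had 26.2, 13.8 and 15.3 TPM in DfosDN, against 35.7, 42.2 and 45.0 TPM in WT. DfosDN replicate 1 was nearest to WT, but no library crossed over. The log2 fold change of stck was -1.16 with a 95% interval from -1.71 to -0.61 (adjusted p = 0.0326, limma). The call was lost without DfosDN replicate 2 or 3 and without WT replicate 2 or 3, and kept in the other 2 fits that left out a library, with adjusted p-values between 0.0102 and 0.124 and log2 fold changes between -1.42 and -0.99, and the adjusted p was 0.0599 with the replicate block. The end of stck overlaps Veneno on the opposite strand.

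The other genes of the assembly did not pass the test. Ilk had 28.9, 22.6 and 36.2 TPM in DfosDN, against 52.4, 32.8 and 40.2 TPM in WT, a log2 fold change of -0.50 (95% interval from -1.02 to 0.02, adjusted p = 0.287, limma). The gene parvin had 14.7, 11.7 and 11.1 TPM in DfosDN, against 16.6, 22.2 and 14.6 TPM in WT, a log2 fold change of -0.47 (95% interval from -0.98 to 0.05, adjusted p = 0.324, limma). In Ilk and parvin the groups overlapped at their edges, and 2 values of Ilk and 1 of parvin had been placed above the smallest power of 10.

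**Figure D3:**
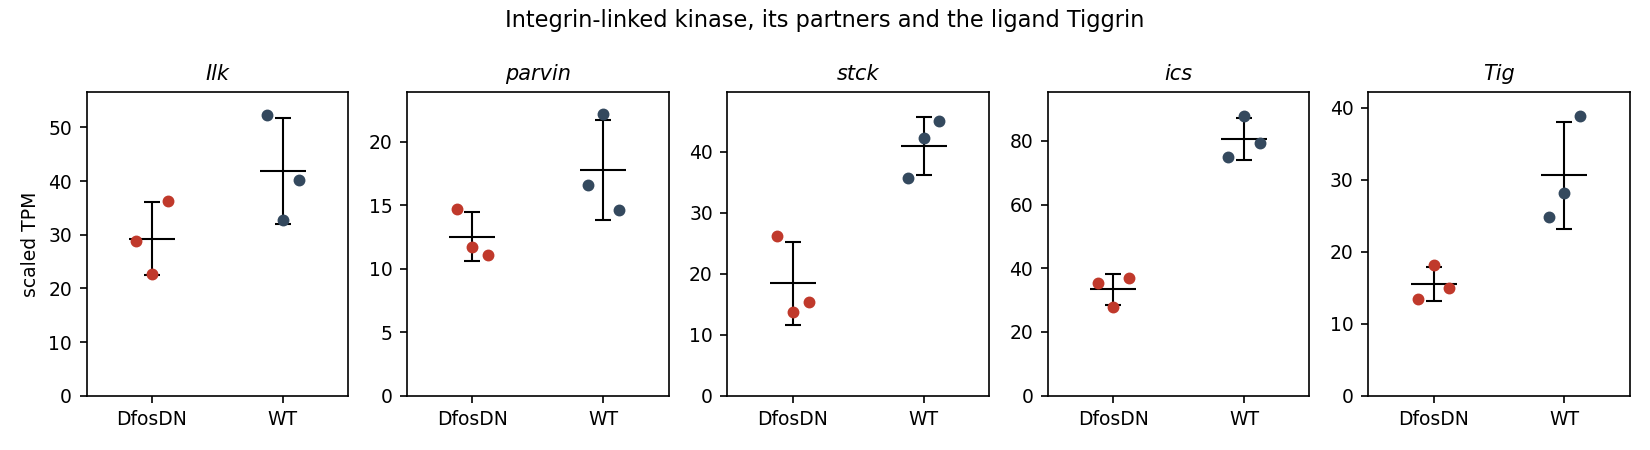
Scaled TPM of Ilk, parvin, stck, ics and Tig in each library, DfosDN left and WT right, axes from 0. Points are libraries, the long dash is the mean and the bars are the SD (n = 3). The groups are separate for stck, ics and Tig and overlap for Ilk and parvin.

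Among the matrix ligands, none of the 8 was called, with 3 at an unadjusted p under 0.05 (limma). Nearest was Tig, which encodes Tiggrin, a ligand of the alphaPS2 integrin. Tig had 13.4, 18.1 and 15 TPM in DfosDN, against 24.8, 28.1 and 38.9 TPM in WT, a log2 fold change of -0.92 (95% interval from -1.42 to -0.42, adjusted p = 0.0552, limma). The groups were separate, as they were for the collagen IV genes Col4a1 (log2 fold change -0.84, adjusted p = 0.164, limma) and vkg (log2 fold change -0.91, adjusted p = 0.196, limma), whose highest value in each case was WT replicate 3. With limma-voom on the restored reads Tig had an adjusted p of 0.00933, in a range from 0.00685 to 0.451 over 19 alternatives, and 1 of its values had been placed above the smallest power of 10. The laminin chains LanA, LanB1 and LanB2 had log2 fold changes of -0.31, -0.25 and -0.25, and wb, a laminin alpha chain, had 0.07.

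The remaining list members gave no call. Focal adhesion kinase (Fak) and the small GTPase Rap1 had log2 fold changes of 0.29 (adjusted p = 0.541, limma) and 0.35 (adjusted p = 0.193, limma), and the kinase Src64B had -0.50 (adjusted p = 0.132, limma). The adaptor p130CAS had -0.83 (adjusted p = 0.2, limma) and the Rap1 exchange factor C3G had -0.56 (adjusted p = 0.283, limma). The groups did not overlap for p130CAS, C3G, Src64B or Rap1, the last of them higher in DfosDN, and overlapped for Fak. Vinculin (Vinc) and paxillin (Pax) had -0.08 and -0.09, with overlapping groups. The tensin gene by, named here after its values were seen, had 0, 0 and 1 reads in DfosDN, against 8, 12 and 11 reads in WT, and was too scarce to pass the filter.

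**Figure D4:**
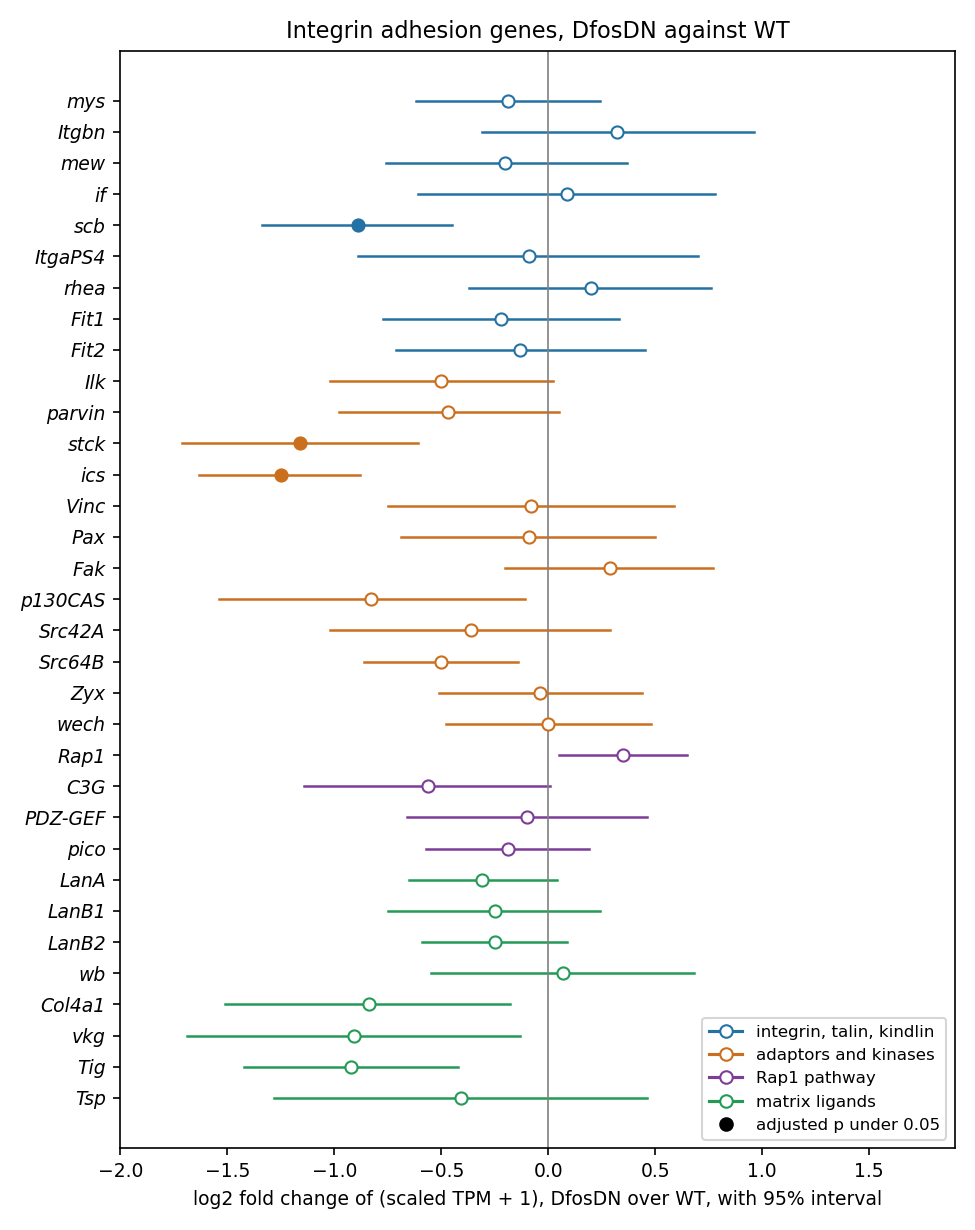
Log2 fold change of (scaled TPM + 1) in DfosDN over WT with its 95% interval from limma, for the 9 tested integrin, talin and kindlin genes and the 24 tested genes of the wider adhesion list. Filled points have an adjusted p under 0.05, and these are scb (-0.89), stck (-1.16) and ics (-1.25).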

How the data were processed

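RNA from sorted macrophages of 3 DfosDN and 3 WT samples was sequenced as 50 base reads. According to the paper's methods and the submitters' processing notes, the authors prepared the libraries with a 3′ end kit, mapped them with STAR 2.5.1b (genome BDGP6), summed reads by gene in HTSeq 0.5.4p3, scaled by TMM and ran voom and limma. The deposited values are on the TPM scale, with the decimal point lost from every value of 1 or more. How they were made from counts is not given in the sources used here.

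Restoration used union exon lengths of the BDGP6.54 annotation and a constant per library, with which between 97.9% and 98.4% of intact values were whole reads within 1e-04. Powers of 10 were chosen with a negative binomial model with a mean per group, so the conditions of the samples enter it, and genes with a posterior probability under 0.9 were set aside (511, against 11597 restored). For 139 genes the length was taken from the values, within 25% of the annotated one, and 42 expressed genes had no length and 9 gave no whole reads. With the genes set aside included, restored TPM summed to between 995247 and 1011111 per library, against the 1000000 that TPM sums to. Genes needed 10 reads in 3 libraries and 15 in total. TPM values were scaled by TMM factors (30% of ratios and 5% of intensities trimmed). Since the deposited values are no counts, the main test was limma (3.58.1, in R 4.3.3) with a trend of variance on mean log2(TPM + 1). Fold changes of scarce genes come out too small on it. Other steps ran in Python 3.11.15 with SciPy 1.17.1 and NumPy 2.4.6, and the procedure was tested on simulated data. The named genes are the 10 members, the genes of the adhesion list past the threshold or with the smallest p, and kay, cher and TM4SF, with values of other list genes given for context. The genes, lists and tests were chosen with earlier results of these data known. Alternatives were other scalings, pseudocounts, filters, restoration rules, limma-voom, a replicate block and leaving out each library. Replicate libraries of a group differed by more than sampling noise (chi-square per degree of freedom between 32.1 and 41.6), so none was counted as a repeat. Intervals and limits from counts of 0 cover counting error only.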

Additional observations from a re-analysis of the deposited data

How the results depend on the processing

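The log2 fold change of scb stayed negative under all 19 alternatives, between -0.96 and -0.73, and scb was called in 8 of them. It was not called without a filter on low reads (-0.89, adjusted p = 0.0714), with the smallest power of 10 for every value (-0.89, adjusted p = 0.266), with restoration that left out the conditions (-0.88, adjusted p = 0.0637), with no posterior limit (-0.89, adjusted p = 0.0518), with the replicate block (-0.89, adjusted p = 0.0682) or with any library left out (-0.96 to -0.80). Its reads were identical under every rule of restoration. In these same settings 0 of the 10 genes were called (limma, with the unadjusted p of scb between 0.000978 and 0.00838). Counts over all genes moved more. With the settings of the report 116 genes were called higher and 146 lower. No filter gave 51 and 51, the smallest power of 10 gave 6 and 12, restoration without conditions 55 and 74, and RPM 247 lower. Leaving out a library gave between 46 and 126 higher and between 44 and 119 lower. Calls in the adhesion list were 1 without a filter, 1 without conditions, 1 with the replicate block, 0 with the smallest power, and 1 to 2 with a library left out. Leaving out a library reversed if (to between -0.19 and 0.35 over the 6 fits, with 3 reversals) and ItgaPS4 (between -0.33 and 0.23, with 0.23 without DfosDN replicate 3 and 0.10 without WT replicate 3), and moved the uncalled mys (-0.33 to -0.10), Itgbn (0.09 to 0.53), mew (-0.35 to -0.03), rhea (0.08 to 0.28), Fit1 (-0.35 to -0.03) and Fit2 (-0.23 to -0.07) without a change of sign, and parvin was 0.44 with the smallest power of 10. Over all genes tested, same-numbered libraries did not deviate together (correlations of -0.024, 0.026 and 0.019 for replicates 1, 2 and 3). The labels do not say whether they were prepared together, so the values do not settle whether the block is a true pairing. With the block, 92 genes were called higher and 112 lower. The cause of these changes was not tested.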
